A study of Mus musculus with 8 samples.

Results

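Ptgds and 6 genes typical of the fibroblasts that line the brain and surround the inner ear, Aldh1a2, Slc6a13, Slc47a1, Igfbp2, Foxc1 and Foxd1, were followed in RNA of the mouse cochlea with and without miR-29a. They were found by gene symbol in a table of 21895 genes, and all 7 were present. The set was chosen by the FPKM level of Ptgds, which exceeded that of every other gene in 2 of the KO libraries, so its levels are given as a description and without a test. The cochlea is the coiled hearing organ inside the temporal bone, and each library was made from cochlear RNA. Dissection of the whole cochlea is described in the study's methods for RNA extraction and PCR. The data held 4 libraries of miR-29a+/+ mice, called WT1 to WT4, and 4 of miR-29a-/- (knockout) mice, called KO1 to KO4. Both genotypes came from heterozygous breeding on a C57BL/6 background, animals of both sexes were used in the study, and no other allele or agent was named. The study's methods give an age of 2 months, whereas the series text gives 21 days. The deletion is in every cell of the body, and no source used here says whether each library came from a separate animal, so p-values measure the spread between these libraries only. The deleted microRNA itself has no row in the table, and the genotype labels were therefore not checked against it.

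The meninges are the membranes around the brain, and their inner layers are built by fibroblasts that form a barrier between blood and cerebrospinal fluid. These cells secrete lipocalin-type prostaglandin D synthase, the product of Ptgds, which both makes prostaglandin D2 and carries small hydrophobic molecules in cerebrospinal and inner ear fluid. They also make retinoic acid and carry transporters that clear solutes from the fluid. In the inner ear, periotic mesenchyme gives rise to the otic capsule and to the fibrocytes of the lateral wall and limbus, and related forkhead factors act in both tissues.

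The microRNA that the KO mice lack recognises mRNAs through bases 2 to 8 of its 5′ end, the seed. These mature sequences from RefSeq (GRCm38.p6) are shown, with the seed in capitals, because every one of the 3 family members carries the same seed. No microRNA level was measured here. MiR-29a-3p lies on chr6:31062673-31062694, minus strand.
mmu-miR-29a-3p: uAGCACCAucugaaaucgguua
mmu-miR-29b-3p: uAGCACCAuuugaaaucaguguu
mmu-miR-29c-3p: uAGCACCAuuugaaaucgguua

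The complement of this seed, TGGTGCT, was searched in the longest annotated 3′-UTR of each gene, on the mRNA strand. Among the 7 genes it was found in Foxc1 only, once, at bases 3200 to 3206 of a 3′-UTR of 3607 bases (chr13:31812069-31812075, plus strand, GRCm38). That site is shown with the match in capitals.
Foxc1 3′-UTR site: agtcctgttgccttgTGGTGCTg
Of 14837 tested genes with an annotated 3′-UTR, 2479 (16.7%) held the same letters, in 3′-UTRs with a median length of 1346 bases. The 3′-UTRs without a match measured 162 bases in Ptgds, 312 in Igfbp2, 317 in Slc6a13, 649 in Aldh1a2, 2415 in Slc47a1 and 3315 in Foxd1. A match is a description of sequence and does not show a working site.

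Levels are FPKM, fragments per kilobase of transcript, scaled to the mapped fragments of the library, which can be compared between genes because length is divided out. Differences are KO minus WT on the scale of log2(FPKM + 0.1), tested with limma, and a gene was called when the unadjusted two-sided p was under 0.05, the rule of the study. With all 8 libraries 767 of 14990 tested genes (5.12%) were called, 691 higher and 76 lower in KO, and none passed a Benjamini-Hochberg adjusted p of 0.05. Over the tested genes the log2 fold change had a median of 0.10, and rescaling each library to a common median ratio moved it to 0.00451 and the split to 401 higher and 362 lower. Without WT1 the count rose to 2922 of 15019 genes (19.5%), so values without that library are given beside those of all 8. Counts were not in the table and the relative depth, estimated from the smallest values, lay between 0.953 and 1.17 of the median library. Since the tissue is a mixture, fewer cells of a type and less RNA per cell cannot be told apart.

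Ptgds was one of the most abundant mRNAs of the cochlear samples. It had the highest mean FPKM of all genes and ranked first in KO1 and KO2, at rank 2 in WT2, WT3, WT4, KO3 and KO4, and at rank 4 in WT1. It took between 1.49% and 2.16% of the summed FPKM of a library. In KO1 it lay just above mt-Co1, a mitochondrial subunit of cytochrome oxidase (4402 against 4218 FPKM), and in KO2 just above Hbb-bs, an adult beta globin of red blood cells (4839 against 4694 FPKM). Where it ranked second, the gene above it was Nemf, at 5317 to 8202 FPKM in WT2, WT3, WT4 and KO4, or Hbb-bs, at 6553 FPKM in KO3. Its rank did not follow its level, since the Ptgds level of WT3, where it came after Nemf, was above that of KO1 and KO2.

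By library, Ptgds measured 3746, 4267, 5458 and 3810 FPKM in WT1 to WT4, and 4402, 4839, 6097 and 5249 FPKM in KO1 to KO4. The groups overlapped, with WT3 second of all 8 libraries. The means were 4320 ± 793 FPKM in WT and 5147 ± 722 FPKM in KO (SD, n = 4 each). On the log2 scale the means differed by 0.26. The highest and lowest libraries differed 1.63-fold, the narrowest range among the 7 genes.

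**Figure D1:**
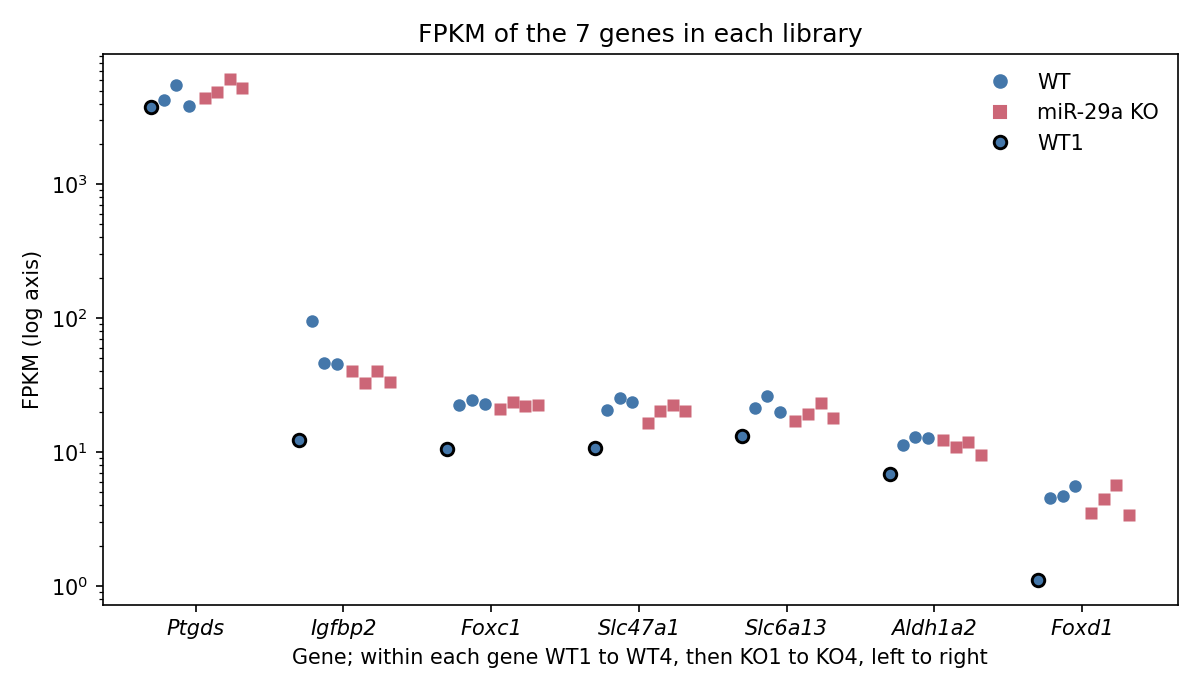
FPKM (log axis) of each gene in each library, WT1 to WT4 as circles and KO1 to KO4 as squares from left to right, with WT1 ringed. Ptgds lies far above the other genes, the groups overlap for every gene, and WT1 is the lowest point of each.

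The other genes were expressed at much lower levels. Igfbp2 came next by mean, and Ptgds exceeded it 45.3-fold to 306-fold depending on the library. In WT1, however, Slc6a13 (13.3 FPKM) lay above Igfbp2 (12.2 FPKM). Igfbp2 lay above Foxc1 in 8 of 8 libraries. Foxc1, Slc47a1 and Slc6a13 had no fixed order, since Foxc1 was above Slc47a1 in 4 of 8 and Slc47a1 above Slc6a13 in 3 of 8 libraries. Slc6a13 lay above Aldh1a2, and Aldh1a2 above Foxd1, in 8 of 8 libraries.

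None of these 6 genes was called between miR-29a KO and WT with all libraries, against 5.12% of all tested genes, and the groups of none of the 6 stood apart, against 3.50% of all tested genes. The intervals nevertheless leave room for sizeable differences.

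Aldh1a2 encodes a retinaldehyde dehydrogenase that makes retinoic acid, and it is a known marker of arachnoid and other meningeal fibroblasts. It measured 6.79, 11.3, 13.0 and 12.8 FPKM in WT1 to WT4 and 12.2, 10.9, 11.9 and 9.43 FPKM in KO1 to KO4. Only WT1 stood away from the others. The log2 fold change was 0.06 with a standard error of 0.22 (limma, interval -0.45 to 0.56, adjusted p = 0.988). Without WT1 it was -0.16 (unadjusted p = 0.259, limma).

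Both solute carriers gave the same picture. Slc6a13 (GAT2), which takes up GABA and taurine, measured 13.3, 21.2, 26.0 and 19.8 FPKM in WT and 16.96, 19.1, 23.2 and 17.9 FPKM in KO. The KO values lay between the lowest and the highest WT value. Its log2 fold change was -0.03, with a standard error of 0.21 and an interval from -0.51 to 0.46 (limma, adjusted p = 0.992). Slc47a1 (MATE1), which exports organic cations in exchange for protons, measured 10.8, 20.5, 25.3 and 23.7 FPKM in WT and 16.4, 20.1, 22.3 and 20.4 FPKM in KO. Its WT range likewise enclosed the KO range. The log2 fold change was 0.04 with a standard error of 0.27 (limma, interval -0.56 to 0.65, adjusted p = 0.990), and without WT1 the values were -0.21 for Slc6a13 and -0.23 for Slc47a1 (unadjusted p = 0.194 and 0.132, limma).

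Foxc1 and Foxd1 are forkhead transcription factors. Foxc1 is required for the meninges and the skull to form, and Foxd1 marks stromal progenitors, among them those of the kidney. Foxc1, the one gene with a seed match, measured 10.5, 22.5, 24.6 and 22.6 FPKM in WT and 20.8, 23.4, 22.2 and 22.3 FPKM in KO. The KO libraries were nearly equal, and 3 of the WT libraries lay at the same height while WT1 lay below all others. The log2 fold change was 0.21 with a standard error of 0.26 (limma, interval -0.38 to 0.81, adjusted p = 0.973) and -0.07 without WT1 (unadjusted p = 0.494, limma). Without WT1, Foxc1 was the steadiest of the 7 genes, with a coefficient of variation of 5.22% over 7 libraries against 45.1% for Igfbp2, the most variable.

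Foxd1 was the lowest of the 7, at 1.11, 4.51, 4.71 and 5.53 FPKM in WT and 3.50, 4.47, 5.65 and 3.40 FPKM in KO. The KO range enclosed WT2, WT3 and WT4, and WT1 lay below it. Its log2 fold change was 0.28 with a standard error of 0.47 (limma, interval -0.79 to 1.36, adjusted p = 0.982), and -0.23 without WT1 (unadjusted p = 0.299, limma).

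Igfbp2 encodes a secreted protein that binds insulin-like growth factors and is made by meningeal fibroblasts and by choroid plexus, the tissue in the brain ventricles that produces cerebrospinal fluid. It measured 12.2, 94.3, 46.0 and 45.4 FPKM in WT1 to WT4 and 40.0, 32.5, 40.3 and 33.2 FPKM in KO1 to KO4. The lowest and the highest library of the series were both WT. The SD was 33.8 FPKM in WT and 4.23 FPKM in KO (n = 4 each), around means of 49.5 and 36.5 FPKM, and the log2 fold change was -0.12 with a standard error of 0.52 (limma, interval -1.31 to 1.08, adjusted p = 0.989).

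Without WT1, Igfbp2 was the one gene of the 6 that was called, with a log2 fold change of -0.68 and a standard error of 0.26 (limma, interval -1.27 to -0.09, unadjusted p = 0.0287, adjusted p = 0.206). All 4 KO values then lay below WT2, WT3 and WT4. In the same fit 19.5% of all tested genes were called, so 1 call among 6 genes is near the background. With WT2 left out as well, a choice made after seeing the data, the log2 fold change was -0.33 and was no longer called (unadjusted p = 0.0589, limma). Leaving out WT2 alone gave 0.30, in the other direction.

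**Figure D2:**
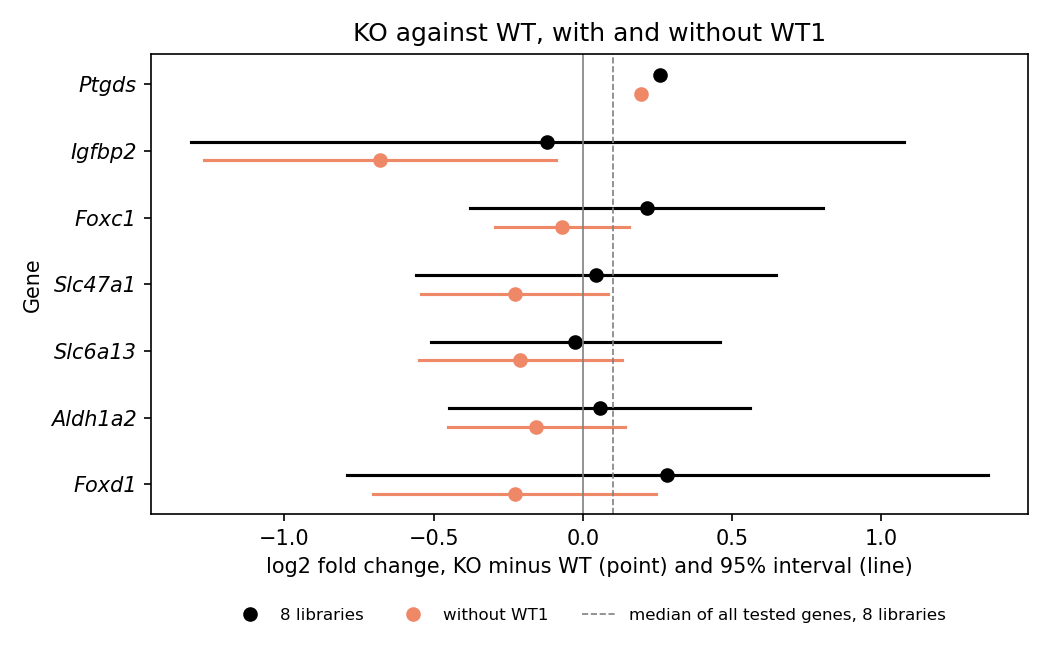
Log2 fold change, KO minus WT on log2(FPKM + 0.1), for each gene, with its 95% interval for the 6 tested genes and a point alone for Ptgds, from all 8 libraries (black) and without WT1 (orange). The dashed line is the median of all tested genes in 8 libraries, 0.10. Each of the 6 intervals from 8 libraries spans 0, and without WT1 that of Igfbp2 (-1.27 to -0.09) does not.

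WT1 was the lowest library for 7 of 7 genes. It was also the lowest for 52.0% of all tested genes, and its median gene lay 0.41 below the median of the other libraries on the log2 scale. Ptgds lay at 77.4% of the median of the other 7 libraries, Slc6a13 at 67.0%, Aldh1a2 at 57.1%, Slc47a1 at 52.8%, Foxc1 at 46.7%, Igfbp2 at 30.4% and Foxd1 at 24.7%. Set among all tested genes, 52.7% were lower in WT1 than Ptgds by this measure, 40.6% lower than Slc6a13, 29.1% lower than Aldh1a2, 24.4% lower than Slc47a1, 18.4% lower than Foxc1, 6.06% lower than Igfbp2 and 4.09% lower than Foxd1. Ptgds and Slc6a13 thus lay near the middle of all genes, and Igfbp2 and Foxd1 near the low end. A single row, Gm8797, took 17870 FPKM in WT1, the highest value there, and its part in the low level of other genes was not tested.

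After median-ratio rescaling, WT1 was no longer low for Ptgds. The rescaled levels were 4851, 4122, 5308 and 3599 FPKM in WT1 to WT4 and 4711, 4442, 5671 and 4998 FPKM in KO1 to KO4, so that WT4 became the lowest library. WT1 remained the lowest for Aldh1a2, Slc47a1, Igfbp2, Foxc1 and Foxd1, for example at 1.44 FPKM of Foxd1 against 3.24 to 5.26 FPKM elsewhere. For Slc6a13 the lowest library after rescaling was KO4, at 17.05 FPKM, with WT1 at 17.2 FPKM.

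**Figure D3:**
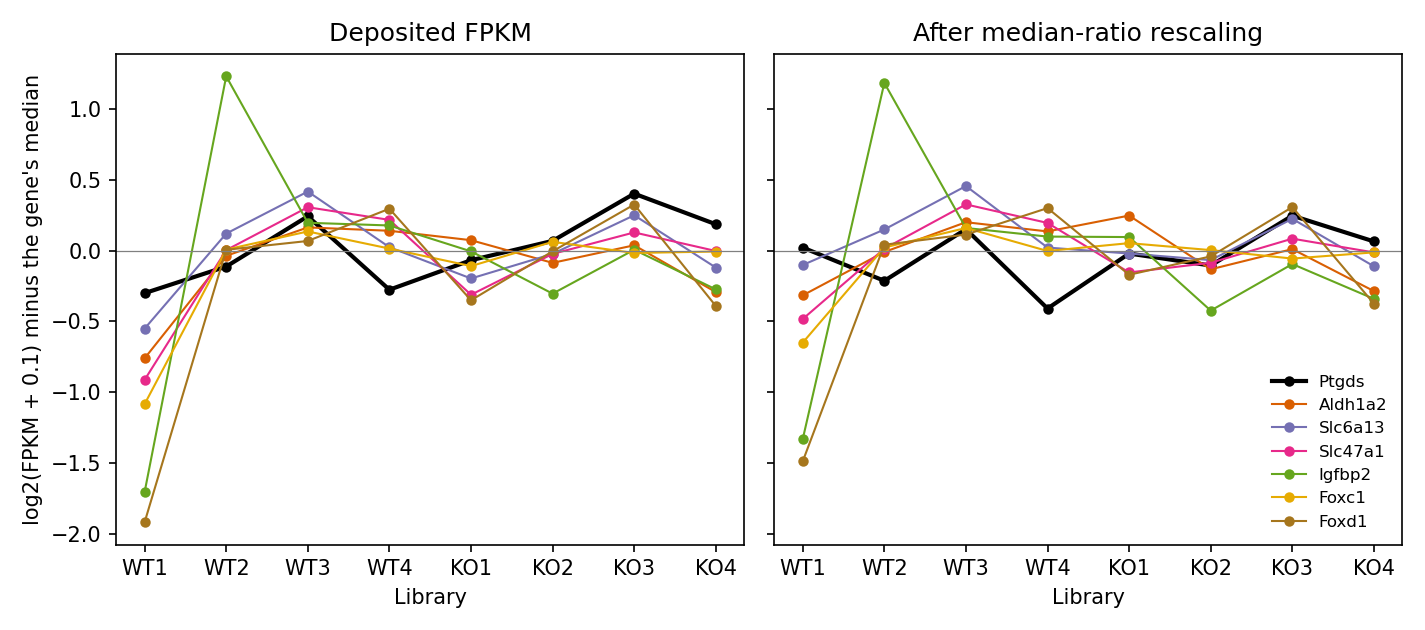
Level of each gene in each library as log2(FPKM + 0.1) minus the gene's median over the 8 libraries, as deposited (left) and after median-ratio rescaling (right). As deposited, the 6 lower genes fall together in WT1, and in both panels Igfbp2 alone peaks in WT2. Ptgds shares its high libraries, WT3 and KO3, with Slc6a13, and after rescaling its lowest library is WT4 at 3599 FPKM.

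By Pearson's r over all 8 libraries, the pairs among the 6 lower genes lay above the pairs with Ptgds, which was not so by rank or without WT1. Over the 15 pairs among the 6, Pearson's r ran from 0.72 to 0.94 with a median of 0.85, and Spearman's rho from 0.48 to 0.91. Ptgds had r between 0.22 and 0.65 with them, and rho between 0.19 and 0.60. These are descriptions over 8 libraries that share WT1 as a common low point. Without WT1 the median r among the 6 fell to 0.39, with a range from 0.04 to 0.81, and after rescaling it was 0.66. For Ptgds the values without WT1 ran from -0.38 to 0.47. After rescaling they ran from -0.31 to 0.35, below the range of 0.48 to 0.88 among the 6.

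The genes most like Ptgds over the 8 libraries, among those with a mean of at least 1 FPKM, were Kdelr1 (r = 0.946), Serpine2 (0.939), Fkbp11 (0.939), Bet1 (0.934), Fxyd3 (0.931), Fuca2 (0.927), Agfg2 (0.922) and Rad1 (0.921). None of the 6 genes was among these 8. They, like the genes given below for each other member, are the highest of 14126 genes searched over only 8 libraries. With so many genes searched, values this high can arise by chance, and no test was made. Kdelr1 returns proteins to the endoplasmic reticulum, Bet1 serves transport from there to the Golgi, and Serpine2 is a secreted protease inhibitor. The roles of the others in the list are not described here, and a role shared by the list was not tested. For Foxc1 the most like were Spryd3 (0.997), Fam174a (0.996) and Jag2 (0.995), for Slc47a1 they included Cygb (0.995) and Iqck (0.995), and for Foxd1 they were Gm30191 (0.994), Acadm (0.994) and Mtfp1 (0.993). For Aldh1a2 they were Ube2q2 (0.980), Wnt7b (0.979) and Blcap (0.975), for Slc6a13 Gstt2 (0.987), Otud6b (0.984) and BC031181 (0.981), and for Igfbp2 Npr3 (0.968), Aldh7a1 (0.966) and Cep63 (0.963). The likeness of the last 3 to Igfbp2 fell to between 0.15 and 0.60 without the 2 libraries farthest from its median.

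Of the prostaglandin pathway, 22 genes were listed, and besides Ptgds 20 were abundant enough to be tested. One, Tbxa2r, the thromboxane receptor, was called higher in KO, and none was called lower, against 5.12% of all tested genes. It measured 0.51, 0.74, 0.47 and 1.14 FPKM in WT and 0.82, 1.39, 1.44 and 1.38 FPKM in KO, with a log2 fold change of 0.78 ± 0.34 (SE, limma, adjusted p = 0.947). The median over these 20 genes was 0.23, and 18 values lay above 0, whereas over all tested genes the median was 0.10 and 66.5% lay above 0. Without WT1 the median was 0.32, and 2 genes were called higher and 1 lower, beside 19.5% of all tested genes.

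Ptgds dwarfed the rest of this pathway. Hpgds, the other prostaglandin D synthase, had 1.63 to 3.04 FPKM. The next most abundant genes of the list were Ptges3, a co-chaperone also named as a prostaglandin E synthase, with a mean of 40.5 FPKM, and Ptgis, the prostacyclin synthase, with a mean of 14.97 FPKM. Their log2 fold changes were -0.18 and 0.60, and neither was called (adjusted p = 0.983 and 0.947, limma). The cyclooxygenases upstream of all prostaglandins had means of 8.93 FPKM (Ptgs1) and 1.11 FPKM (Ptgs2). Of the prostaglandin D2 receptors, Ptgdr measured 0.43 to 1.61 FPKM, and Ptgdr2 was at 0 in WT2 and at most 0.09 FPKM elsewhere, below the filter.

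Of 20 tested genes of retinoid metabolism and signaling, 1 was called higher in KO and none lower, which is near the 5.12% of all tested genes. This was Rbp4, the carrier of retinol in blood, at 2.77, 4.198, 6.23 and 10.3 FPKM in WT and 9.76, 9.56, 9.46 and 14.9 FPKM in KO (log2 fold change 1.02 ± 0.37, SE, limma, adjusted p = 0.947). WT4 lay among the KO values. Aldh1a1, Dhrs3 and Rarg, the most abundant of the list, had means of 38.8, 22.4 and 21.8 FPKM, and none was called. Aldh1a2 was thus present at a lower level than the related retinaldehyde dehydrogenases Aldh1a1 and Aldh1a3 (mean 17.35 FPKM). Without WT1, 2 genes of the list were called higher and 3 lower, beside 19.5% of all tested genes, and the median moved from 0.06 to -0.04.

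Of 12 tested genes of the insulin-like growth factor system, 2 were called higher in KO and none lower, against 5.12% of all tested genes, 691 of whose 767 calls were higher. Both encode binding proteins, as Igfbp2 does. Igfbp7, a protein of vessels and matrix, measured 19.1, 27.9, 22.0 and 21.1 FPKM in WT and 41.3, 41.5, 40.9 and 27.2 FPKM in KO, with a log2 fold change of 0.73 ± 0.19 (SE, limma, adjusted p = 0.922). KO4 lay below WT2, so the groups overlapped. Igfbp4 measured 23.7, 49.1, 33.4 and 59.1 FPKM in WT and 66.2, 69.7, 69.5 and 53.8 FPKM in KO (0.73 ± 0.28, SE, limma, adjusted p = 0.947). Igfbp5, the most abundant, had a mean of 132 FPKM and a log2 fold change of -0.09. Igf2, the growth factor, had 0.07. Without WT1, 2 genes of the list were called higher and 1 lower, beside 19.5% of all tested genes, and the median moved from 0.03 to -0.05.

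Transporters of the meningeal barrier, 12 with Slc6a13 and Slc47a1 among them, gave no call in either direction, beside 5.12% of all tested genes, at a median log2 fold change of 0.02. Without WT1, 1 was called lower, beside 19.5% of all tested genes, and the median was -0.22. In WT1, 11 of the 12 were at their lowest. The most abundant were Slc13a4, a sulfate transporter (mean 30.5 FPKM), Slc23a2, a vitamin C transporter (25.3 FPKM), and Slc47a1. Among 32 genes of meningeal fibroblasts, in which all 7 genes are counted, 31 were tested besides Ptgds, and 1 was called higher and none lower, near the 5.12% of all tested genes. It was the chemokine Cxcl12, at 36.5, 9.55, 4.56 and 14.6 FPKM in WT and 37.2, 47.3, 50.9 and 18.5 FPKM in KO (1.53 ± 0.60, SE, limma, adjusted p = 0.947). WT1 lay with the KO libraries for Cxcl12, unlike for the 7 genes. Apart from WT1, the libraries ranked by Cxcl12 as by the summed marrow markers given below, and the part of marrow was not tested. The groups of 1 of the 32, Dpp4, a surface peptidase of fibroblasts, did not overlap, against 3.50% of all tested genes (8.41 to 10.25 FPKM in WT, 10.44 to 12.8 FPKM in KO), but it was not called (unadjusted p = 0.0625, limma).

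Dcn and Gjb2 followed Ptgds in abundance in that list, with means of 190 and 155 FPKM and log2 fold changes of 0.22 and -0.13. Without WT1, 8 of the 31 genes were called, 2 higher and 6 lower, beside 19.5% of all tested genes, and the median without Ptgds moved from 0.06 to -0.14. Of 17 periotic mesenchyme and fibrocyte genes, Kcnj16, a potassium channel, was the 1 called, higher in KO, near the 5.12% of all tested genes (2.62 to 14.4 FPKM in WT, 12.3 to 16.5 FPKM in KO, log2 fold change 1.12 ± 0.47, SE, limma, adjusted p = 0.947). The abundant genes of these cells, Coch, Slc4a11 and Car3, had means of 1589, 248 and 165 FPKM and log2 fold changes of 0.17, -0.25 and -0.29, with no call. Without WT1, 3 of the 17 were called, near the 19.5% of all tested genes, and the median of the list moved from 0.16 to -0.15.

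The marker genes of other tissues showed what else the samples held. Of 12 choroid plexus markers, 11 were at their highest in WT2, where 12.7% of all tested genes had their highest value. Ttr, the thyroxine carrier that choroid plexus makes in bulk, measured 3.91, 2197, 5.60 and 122 FPKM in WT and 6.53, 5.19, 299 and 4.91 FPKM in KO. The other 11 markers summed to 187.5 FPKM in WT2 and to 34.0 to 65.2 FPKM in the other libraries. WT2 was the library with the highest Igfbp2 (94.3 FPKM) and the highest Igf2 (69.4 FPKM), and the part of choroid plexus in these levels was not tested. KO3 and WT4, which followed WT2 in Ttr, had Igfbp2 levels of 40.3 and 45.4 FPKM. The remaining libraries had Ttr at 3.91 to 6.53 FPKM. Their Igfbp2 levels were 46.0 in WT3, 40.0 in KO1, 33.2 in KO4, 32.5 in KO2 and 12.2 FPKM in WT1. None of the 12 choroid plexus markers was called, beside 5.12% of all tested genes, and none was at 0 in any library. Without WT1, 3 were called lower, beside 19.5% of all tested genes, and their median moved from -0.50 to -0.9999.

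**Figure D4:**
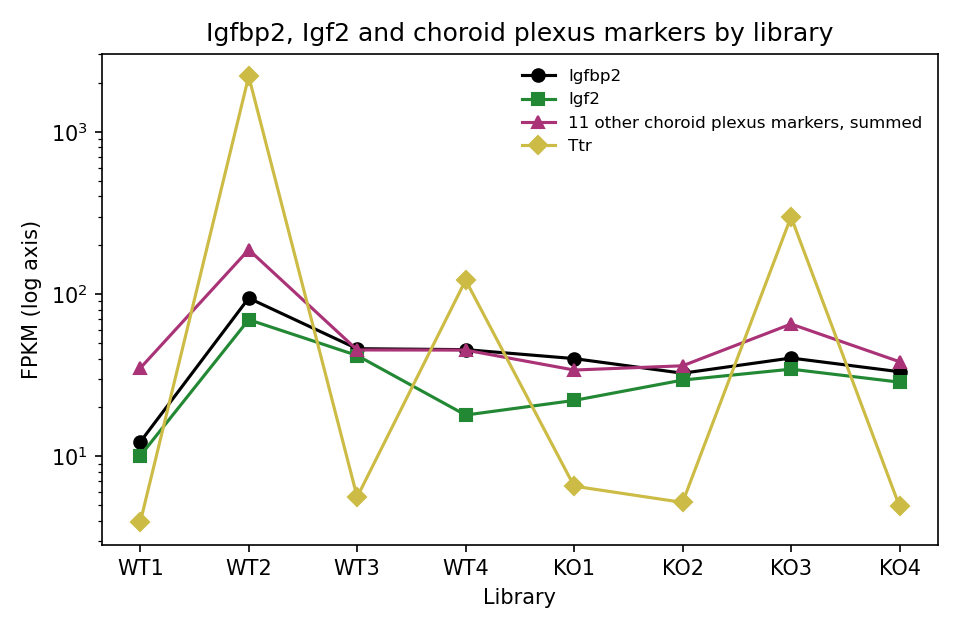
FPKM (log axis) of Igfbp2, Igf2, Ttr and the sum of the 11 other choroid plexus markers in each library. All peak in WT2, at 94.3 FPKM for Igfbp2 and 2197 FPKM for Ttr. Ttr has smaller peaks in KO3 (299 FPKM) and WT4 (122 FPKM), where Igfbp2 measured 40.3 and 45.4 FPKM. Igfbp2 measured 46.0 FPKM in WT3, 40.0 in KO1, 33.2 in KO4, 32.5 in KO2 and 12.2 FPKM in WT1.

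Many neural genes were at their lowest in WT1, as were the 7 genes and 52.0% of all tested genes. This held for 11 of the 12 oligodendrocyte markers listed, Mbp among them, for 9 of 10 neuronal markers, led by Snap25 and Nefl, and for 4 of 6 astrocyte markers. The summed oligodendrocyte markers were 292.8 to 880.3 FPKM in WT and 506.2 to 581.4 FPKM in KO, with WT1 lowest. The neuronal sums were 372.4 to 1112 FPKM in WT and 730.3 to 845.6 FPKM in KO. Astrocyte markers, led by Gfap and Slc1a3, summed to 100 FPKM in WT1 and to 123.4 to 239.4 FPKM elsewhere. Of 7 pituitary markers, led by Gh and Prl, 4 were at their lowest in WT1 alone, Fshb and Tshb were at 0 there and in 1 other library each, and Lhb was at 0 in all 8 libraries, and the sums reached sums of 1704 FPKM in WT4 and 756.1 FPKM in KO3. Without WT1, 5 of 11 tested oligodendrocyte, 5 of 6 astrocyte and 2 of 10 neuronal markers were called lower, beside 19.5% of all tested genes, with medians of -0.62, -0.60 and -0.39, and no pituitary marker was called. With all 8 libraries none of these 4 lists held a called gene, beside 5.12% of all tested genes, and their part in the levels of the 7 genes was not tested.

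Marrow and bone genes did not share the low in WT1, since none of them was at its lowest there. The 11 marrow markers, led by Hbb-bs and S100a8, summed to 10960 FPKM in WT1, 2124 in WT2, 349.6 in WT3 and 2990 in WT4, and to 4144 to 10920 FPKM in KO. Of these, 11 of 11 had log2 fold changes above 0, with a median of 2.32, and the pre-B-cell genes Vpreb1 and Igll1 were called higher, with groups that did not overlap (5.12% of all tested genes were called and 3.50% did not overlap). The 8 bone markers summed to 95.1 to 581.5 FPKM in WT and 616.1 to 821 FPKM in KO, and Col1a1 and Sost were called higher, Col1a1 without overlap, beside the same shares of all tested genes. WT3 had the lowest marrow and bone sums and, within WT, the highest Ptgds, Aldh1a2, Slc6a13, Slc47a1 and Foxc1. Igfbp2 was highest in WT2 and Foxd1 in WT4. Within KO the pattern differed, since KO3 had the highest marrow sum and also the highest Ptgds, Slc6a13, Slc47a1, Igfbp2 and Foxd1. Aldh1a2 was highest in KO1, and Foxc1 and the bone sum in KO2. Without WT1, 11 of 11 marrow and 6 of 8 bone markers were called higher, beside 19.5% of all tested genes. The part of marrow and bone RNA in the levels of the 7 genes was not tested. The muscle markers, led by Acta1 and Myh1, reached a sum of 264.1 FPKM in KO3 and at most 31.3 FPKM elsewhere, and held no called gene.

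The cochlea itself was represented in every library. Coch, the main fibrocyte protein of the inner ear, ranged from 1231 to 1927 FPKM and Gjb2, a gap junction gene of its supporting cells and fibrocytes, from 101 to 241 FPKM. Of 13 tested cochlear markers 1 was called, beside 5.12% of all tested genes. It was Tectb, a protein of the tectorial membrane, lower in KO (0.82 to 1.95 FPKM in WT, 0.36 to 0.94 FPKM in KO, log2 fold change -1.19 ± 0.36, SE, limma, adjusted p = 0.947). Of 7 tested melanocyte markers, led by Dct and Kcnj10, 1 was called, beside the same share of all tested genes, the pigment enzyme gene Tyr, lower in KO (-0.65 ± 0.24, SE, limma, adjusted p = 0.947). Without WT1, 3 cochlear and 3 melanocyte markers were called lower, beside 19.5% of all tested genes. Ptgds and its companions are also made by fibroblasts within the cochlea, so these levels do not say which of the tissues present they came from.

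On the genome (GRCm38, the table's coordinates, which equal those of GENCODE mouse release 21 for 7 of 7 genes), the genes lie on 6 chromosomes and all are protein-coding. Ptgds lies on chr2:25466709-25470046 and Slc47a1 on chr11:61343401-61378345, both on the minus strand. The others are on the plus strand, Igfbp2 at chr1:72824503-72852474, Slc6a13 at chr6:121300227-121337733, Aldh1a2 at chr9:71215789-71296243, Foxc1 at chr13:31806633-31812476 and Foxd1 at chr13:98354242-98359305. RefSeq windows from 250 bases before to 50 bases after the start were matched for 6 of the 7 genes. They differed in base composition. The window of Aldh1a2 was 78% G and C with CpG pairs at 1.11 of the frequency that its bases predict, that of Foxc1 67.3% with 0.943, and that of Ptgds 57.7% with 0.0804, against a median of 52.7% G and C over 32851 windows. The letters TATAAA, searched on both strands, were in none of the windows, against 13.6% of all windows, and the absence says only that these letters are not there.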

How the data were processed

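Cochlear RNA-seq libraries, 4 WT and 4 KO, were grouped by the genotype in their labels. The authors removed ribosomal RNA, made strand-specific libraries, used Hisat2 to map paired-end reads, and deposited an FPKM value for every gene in every library. The tool and annotation behind the FPKM are not given in the sources used here, and the depth in reads is unknown. The labels name mm9, whereas the deposited coordinates are those of GRCm38. The authors ran DESeq2 on counts, which are not used here.

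The values, with 27 symbols restored from dates, were tested as log2(FPKM + 0.1) with limma 3.58.1 in R 4.3.3 (genotype only, moderated variances with a trend, mean FPKM at least 0.5), with Benjamini-Hochberg adjustment over all tested genes. The fit was tested on simulated data. The genes and lists were chosen with earlier results of these data known. Named are the 7 genes, the 8 most like Ptgds, the 3 most like each other gene, the called and the 3 most abundant genes of each pathway list, and the 2 most abundant and any non-overlapping genes of each marker list, with further genes named for their role after their values were seen. A few genes that this rule names are not reported here. Alternatives were a pseudocount of 1, no filter or a minimum of 1 FPKM, median-ratio and quantile scaling, and no trend. Further ones were the replicate number as a block, 6 libraries (replicates 1 to 3), and leaving out each library. The study's figure gives n = 3 per group without naming the libraries, whereas 4 per group were used here.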

Additional observations from a re-analysis of the deposited data

Results flagged for a closer look

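Within the 4 WT libraries, the Foxc1 level of WT1 (10.5 FPKM, against 22.5 to 24.6 FPKM in the other WT libraries) stood apart from the rest, with a gap of 0.851 of the group's whole range, above Dixon's critical value for a group of 4. Among 12 groups of values, the 6 genes other than Ptgds in WT and in KO, this was the one that did so. Chance alone gives about 1 in 20 for each single group, not for the 12 together, so 1 such group is not unusual. The WT groups also share WT1, the lowest library for 52.0% of all tested genes.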

How the results depend on the processing

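No alternative called any of the 6 tested genes except Igfbp2 without WT1. Over single libraries left out, the number of these genes called was 0 to 1, and the log2 fold change ran from -0.156 to 0.152 for Aldh1a2, -0.210 to 0.113 for Slc6a13, -0.228 to 0.179 for Slc47a1, -0.679 to 0.300 for Igfbp2, -0.070 to 0.337 for Foxc1 and -0.229 to 0.510 for Foxd1. For Ptgds, given as a description, it was 0.174 to 0.377, with 0.159 by median-ratio and 0.472 by quantile scaling. The lowest values of the others came without WT1, and the cause was not tested. Scaling turned the uncalled differences of Aldh1a2 (-0.043 by median ratio, -0.058 by quantile) and Slc47a1 (-0.055 and -0.054). In 6 libraries, replicates 1 to 3, Slc6a13 was 0.014. With WT1 and WT2 both left out, chosen after seeing the data, Aldh1a2 was -0.219, Slc47a1 -0.314, Foxc1 -0.092 and Foxd1 -0.287, and 2530 genes were called in all.

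Genes called ranged from 347 (without KO3) to 2922 (without WT1) over single libraries left out, with 377 without KO2. An adjusted p under 0.05 was reached by 3 genes with no filter on low values, by 1 gene in 6 libraries and by 0 to 1 with a library left out. Calls in the lists rested on single libraries too, since leaving 1 out gave 0 to 3 prostaglandin, 0 to 5 retinoid, 1 to 3 growth factor, 0 to 1 transporter, 0 to 8 meningeal fibroblast and 0 to 3 periotic genes, the 5 and the 8 without WT1. Median-ratio scaling gave 3 periotic, 2 prostaglandin and 2 retinoid calls, in place of 1 each. It also gave 3 cochlear calls in place of 1, 2 melanocyte calls in place of 1, and 1 bone call in place of 2. The correlations of the deviations of same-numbered libraries were mixed (0.419, -0.24, -0.17 and 0.21), so the numbers were not taken as pairs, and the replicate block called 838 genes and none of the 6. Quantile scaling turned the split of calls from 691 higher and 76 lower to 378 and 547. The correlation of Ptgds turned negative without the 2 farthest libraries with Aldh1a2 (-0.359), Igfbp2 (-0.397) and Foxd1 (-0.439), and after median-ratio scaling with Aldh1a2 (-0.135), Slc47a1 (-0.043), Igfbp2 (-0.313), Foxc1 (-0.071) and Foxd1 (-0.154).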
